A study of Homo sapiens with 4 samples.

Results

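The genes described here encode the machinery that detects and repairs damaged DNA: poly(ADP-ribose) polymerases (PARPs) and single-strand break repair, end joining, damage signalling, homologous recombination, the Fanconi pathway, mismatch repair and nucleotide excision repair. They were taken as all probe sets annotated with exactly 1 gene symbol equal to one of 44 listed genes. Such probe sets were found for 40 genes, out of 19775 genes named on the array, and all 40 passed the filter on dim signal with at least 1 probe set. RBBP8, BRCA2, FANCA and FANCD2 had no probe set annotated with their symbol alone in the probe table used and were not analysed here. Probe sets with several symbols were not searched for them. The 40 genes held 101 probe sets, of which 85 passed the filter and 16 lay below it.

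The study measured total RNA of KYSE410 cells, an established human cell line of esophageal squamous cell carcinoma, on 4 Affymetrix 3' expression arrays. The titles form 2 groups: 2 arrays of cells given 20 nM YM155 for 6 h, and 2 arrays of untreated cells, all of the same line. The labels name no vehicle for the untreated cells. One protocol text in the labels gives another drug, cisplatin at 10 mM for 12 h, while the treatment labels and the series title give YM155, which is followed here. No label says whether the 2 arrays of a group came from separate cultures, so a p-value reflects only how far these arrays differ, and that spread may be technical.

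A break in one DNA strand is detected by PARP1 and PARP2, whose poly(ADP-ribose) chains recruit XRCC1 and its partner ligase LIG3. A break in both strands is either rejoined directly, by the Ku proteins with DNA-PKcs, XRCC4 and LIG4, or copied from the sister chromatid by homologous recombination, which begins with resection of the ends. ATM and ATR are the kinases that report damage to the checkpoint kinases CHEK2 and CHEK1. YM155 was introduced as an inhibitor of survivin expression and has also been described as eliciting a DNA damage response in cancer cells, so repair transcripts are of interest after this drug.

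No repair gene passed the adjusted threshold. By limma with Benjamini-Hochberg adjustment over 14043 genes, 0 of the 40 had an adjusted p under 0.05, where 0% of all genes did. At an unadjusted p under 0.05, 5 of the 40 stood lower after YM155 (PARP2, RAD54B, ERCC5, CHEK2 and RNF8), against 7.48% of all genes, and 0 stood higher, against 5.23%. Log2 differences below are YM155 minus untreated, from the probe set of highest mean for each gene. They were below 0 for 29 of the 40 genes (all genes: 52.9%), with a median of −0.13, where the median of all genes tested was −0.015. The lowest was −0.79 and the highest 0.72. A change of at least 1.5-fold was seen downward in 4 genes (all genes: 5.09%), PARP2, RAD54B, ERCC5 and XRCC4, and upward in 2 (all genes: 4.04%), ERCC4 and BRIP1. Both YM155 arrays lay below both untreated arrays for 13 genes (all genes: 25.6%) and above them for 4 (all genes: 19.3%). With 2 arrays against 2, an exact permutation test of a single gene cannot go below p = 0.333. In bulk RNA, fewer cells that use a gene and less RNA per cell cannot be told apart.

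**Figure D1:**
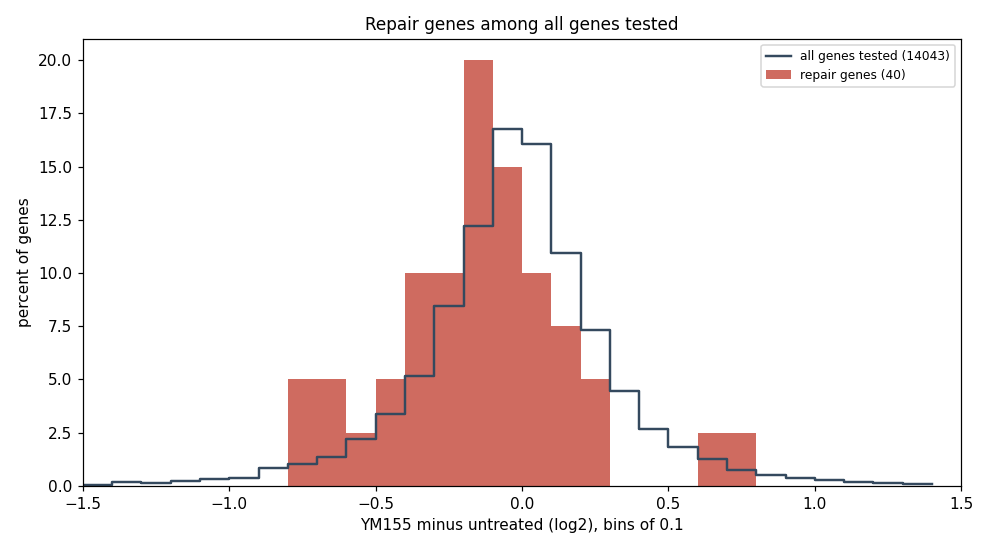
Distribution of log2 differences (YM155 minus untreated, x axis, bins of 0.1) as the percent of genes (y axis), for the 40 repair genes (bars) and all 14043 genes tested (line). The repair genes run from −0.79 to 0.72, and 29 of 40 lie below 0.

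The direction depended on which untreated array was the comparator. The mean of the YM155 arrays lay below untreated replicate 1 for 32 of the 40 genes (all genes: 58.2%), with a median of −0.27, and below untreated replicate 2 for 20 (all genes: 49%), with a median of 0.0096. Over all genes tested these medians were −0.050 and 0.0075. At least 1.5-fold, 7 lay below untreated replicate 1 (all genes: 5.87%) and 0 above it (all genes: 3.57%), while 6 lay below replicate 2 (all genes: 7.88%) and 3 above it (all genes: 8.87%). Of the 40, 19 lay below both untreated arrays (all genes: 34.9%), 7 above both (all genes: 27.6%), and 14 between them (all genes: 37.4%). Among those 14, 13 lay below untreated replicate 1 and above replicate 2, among them ATM, BRCA1, RAD51C and XPA, and RNF168 did the opposite. Over all genes, 8171 of 14043 lay below untreated replicate 1 and 6879 below replicate 2, so the split leaned the same way there. Its size over all genes was not counted. Between the untreated arrays, replicate 2 read below replicate 1 for 28 of the 40 (all genes: 7659 of 14043), with a median of −0.24 (all genes: −0.038). For the 13 genes below replicate 1 and above replicate 2 this holds by arithmetic. The median absolute gap for the repair genes was 0.11 between the YM155 arrays and 0.35 between the untreated arrays, where all genes had 0.12 and 0.23. For 26 of the 40 repair genes the untreated gap exceeded the YM155 difference (65%, against 59.6% of all genes).

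**Figure D2:**
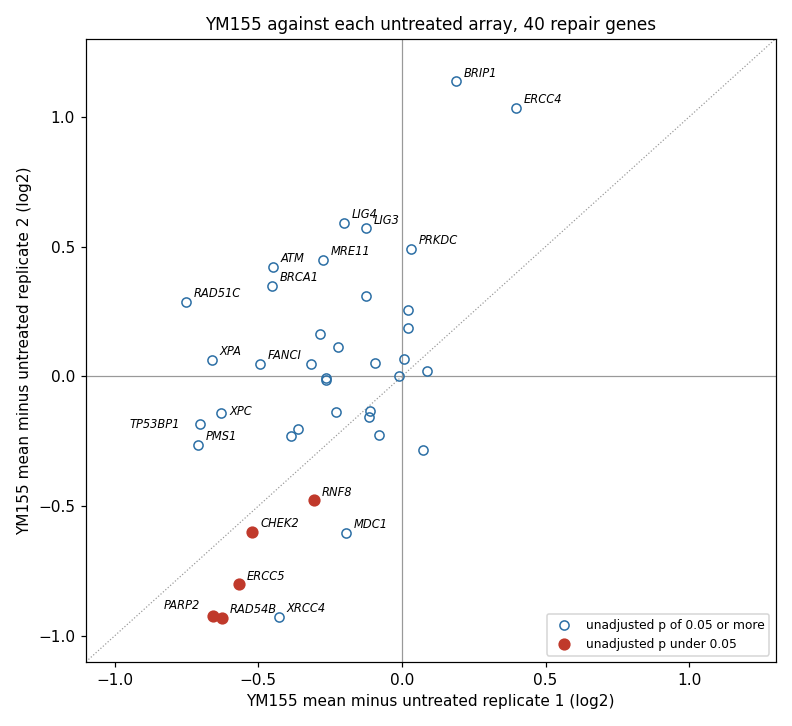
Each point is 1 of the 40 repair genes, placed by the log2 difference of the YM155 mean from untreated replicate 1 (x axis) and from untreated replicate 2 (y axis). Filled points have an unadjusted limma p under 0.05, and the dotted line marks equal differences. The 14 genes of opposite sign lie at the upper left and lower right, and the 5 filled points lie below 0 on both axes. All 1051 genes lower at this threshold had arrays that did not overlap, so the place of the filled points follows from the threshold.

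**Figure D3:**
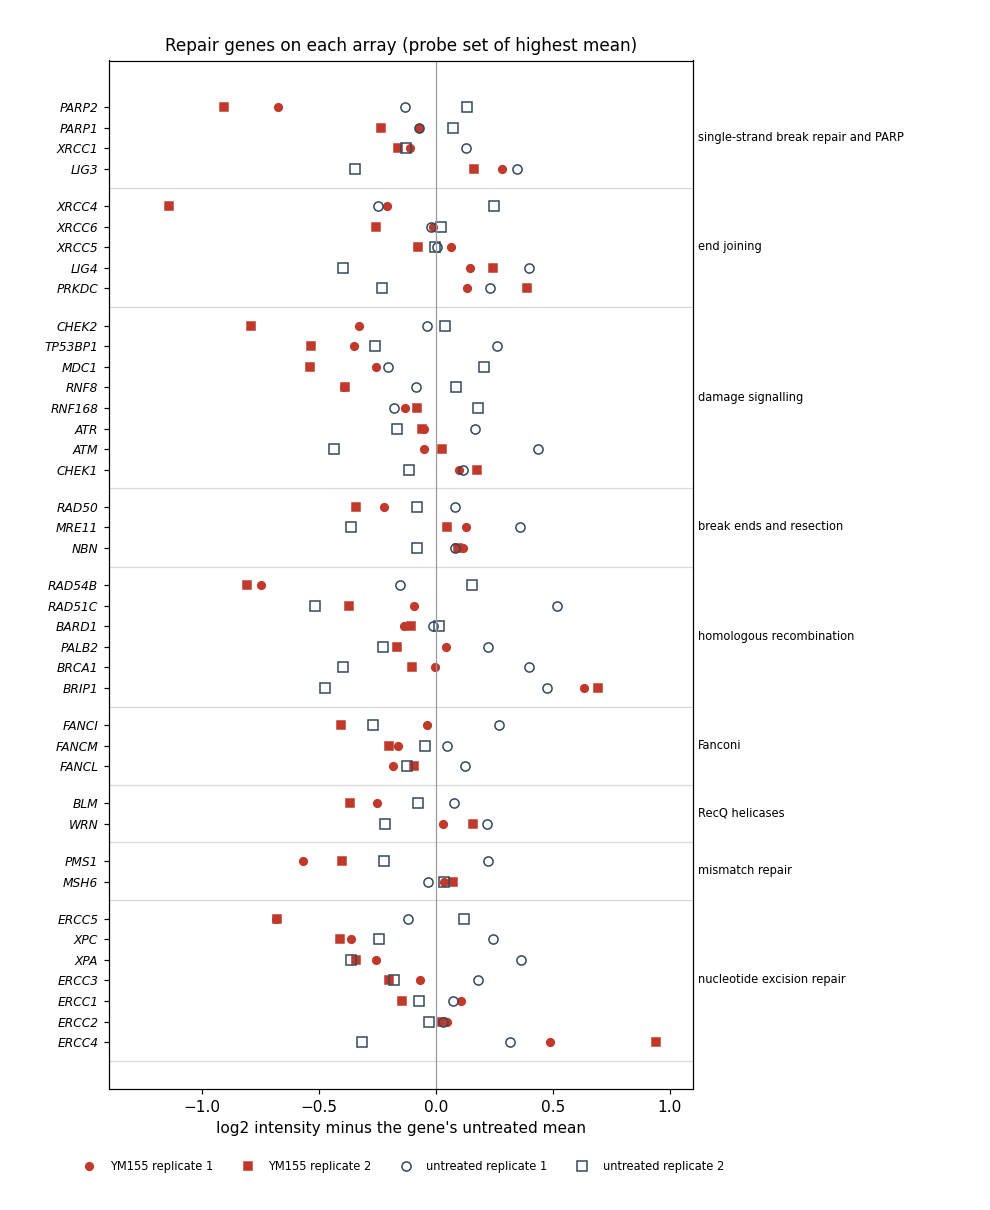
Log2 intensity of each repair gene on each array, minus the mean of its untreated arrays (x axis), with genes grouped by role (y axis) and ordered by their difference within a role. Filled symbols are YM155 arrays and open symbols untreated arrays, with circles for replicate 1 and squares for replicate 2. The filled symbols lie close together for most genes, while the open ones are 0.35 apart in median.

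In single-strand break repair, PARP2 was the lowest of the 40. PARP2, the second damage-activated poly(ADP-ribose) polymerase, read 8.63 and 8.39 log2 on the YM155 arrays, against 9.17 and 9.43 on the untreated arrays. The groups did not overlap, and the difference was −0.79 ± 0.17 (SE; limma adjusted p = 0.232), or 42.2% less signal after YM155. Its 3 probe sets agreed, at −0.79, −0.78 and −0.74, all without overlap, although probe sets of 1 gene can share target sequence and are no replicates. All 3 have names ending in _s_at or _x_at, so PARP2 had no value when such probe sets were left out. PARP1, the main polymerase of the family, read 8.78 and 8.61 on the YM155 arrays and 8.77 and 8.92 on the untreated arrays, with a difference of −0.15 ± 0.14. The scaffold gene XRCC1 gave −0.14 ± 0.15. LIG3, which seals the nick, read 6.98 and 6.86 on the YM155 arrays, both between the untreated readings of 7.05 and 6.35. Its 5 probe sets ran from −0.14 to 0.36, and 2 of them were higher without overlap.

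PARP2 was one of the 5 genes that stood lower at an unadjusted p under 0.05, and the 250 bases before the start site of 4 of them are shown so that these promoters can be read side by side. RAD54B is not in the promoter table used here. The sequences are RefSeq's on GRCh38.p14, 5′ to 3′ on each gene's own strand: PARP2 at chr14:20343385-20343634 (plus strand), ERCC5 at chr13:102845782-102846031 (plus), CHEK2 at chr22:28741821-28742070 (minus) and RNF8 at chr6:37353733-37353982 (plus). For CHEK2 the window precedes one annotated start, and another transcript of the gene begins inside it. Capitals mark the letters CCAAT on either strand, which read ATTGG when they lie on the opposite strand.
PARP2: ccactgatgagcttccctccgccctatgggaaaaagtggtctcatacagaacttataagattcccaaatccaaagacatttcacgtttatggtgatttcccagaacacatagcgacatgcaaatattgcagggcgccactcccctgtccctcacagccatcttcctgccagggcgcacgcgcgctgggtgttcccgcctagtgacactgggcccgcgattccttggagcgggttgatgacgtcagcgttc
ERCC5: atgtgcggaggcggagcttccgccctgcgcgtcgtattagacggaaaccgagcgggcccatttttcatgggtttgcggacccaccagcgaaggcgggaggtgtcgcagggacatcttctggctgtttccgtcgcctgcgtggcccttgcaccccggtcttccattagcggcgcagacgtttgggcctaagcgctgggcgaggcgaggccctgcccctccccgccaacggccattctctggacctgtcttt
CHEK2: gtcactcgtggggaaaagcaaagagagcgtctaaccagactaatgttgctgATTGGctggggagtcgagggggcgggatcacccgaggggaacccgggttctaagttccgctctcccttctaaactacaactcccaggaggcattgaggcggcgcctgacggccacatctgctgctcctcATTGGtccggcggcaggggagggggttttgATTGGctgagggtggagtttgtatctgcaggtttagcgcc
RNF8: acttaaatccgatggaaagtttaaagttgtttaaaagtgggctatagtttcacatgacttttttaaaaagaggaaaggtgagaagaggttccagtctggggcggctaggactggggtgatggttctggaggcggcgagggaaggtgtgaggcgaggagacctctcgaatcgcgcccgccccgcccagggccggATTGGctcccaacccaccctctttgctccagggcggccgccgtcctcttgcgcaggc

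CCAAT occurred 3 times in the CHEK2 window and once in that of RNF8, and was in neither of the other windows shown. Over the 48 windows of the 34 measured repair genes in the promoter table, 23 held CCAAT on either strand (47.9%), against 32% of all 35116 windows. TTTGAA, the letters of the cell cycle homology region, was in 5 (10.4%, against 13.3% of all windows). The E2F-type letters TTTCCCGC were in 1 window (2.08%, against 1.39%), that of XPC. The other E2F-type letters TTTCGCGC, TTTGGCGC and TTTGCCGC and the palindromic motif of NRF1 were in 0, and in 0.439%, 0.55%, 0.49% and 1.03% of all windows. Some genes have several windows that overlap, and a match of letters does not show binding.

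In end joining, no gene reached an unadjusted p under 0.05. XRCC4, the scaffold of the final ligation complex, read 8.04 and 7.10 on the YM155 arrays and 8.0 and 8.50 on the untreated arrays. Its YM155 arrays were themselves 0.94 log2 apart, the widest gap of any of the 40 between them, and replicate 1 overlapped the untreated arrays. The difference was −0.68 ± 0.37 (SE; limma adjusted p = 0.527), and it ran from −1.14 to −0.21 with each array left out. PRKDC, the gene of DNA-PKcs, read 9.95 and 10.21 on the YM155 arrays and 10.05 and 9.59 on the untreated arrays, with a difference of 0.26 ± 0.21. Its second probe set gave −0.24, also with overlap. XRCC6 and XRCC5, the genes of Ku70 and Ku80, gave −0.14 ± 0.15 and −0.0060 ± 0.13. LIG4, the ligase partner of XRCC4, gave 0.20 ± 0.29 from a dim probe set (3.80 to 4.60 log2, where the filter lay at 3.32). All 5 end joining genes had arrays that overlapped at their probe sets of highest mean. Dimmer probe sets of XRCC5 (−0.15) and XRCC4 (−0.21) were lower without overlap.

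Damage signalling genes were mostly below 0, 7 of 8 (all genes: 52.9%), with a median of −0.25, and 4 of them lay lower without overlap (all genes: 25.6%). Of 20 further damage signalling genes tested, in a list chosen with the results known, 8 were below 0, with a median of 0.058, and 4 lay lower and 4 higher without overlap. CHEK2, the checkpoint kinase activated by ATM, read 7.26 and 6.80 on the YM155 arrays and 7.55 and 7.63 on the untreated arrays. Both YM155 arrays lay below both untreated ones, and the difference was −0.56 ± 0.19 (SE; limma adjusted p = 0.355), from the only probe set of the gene. RNF8, a ubiquitin ligase that marks chromatin around breaks, read 6.79 and 6.80 on the YM155 arrays, below the untreated readings of 7.10 and 7.27, a difference of −0.39 ± 0.13 (limma adjusted p = 0.35). TP53BP1, which binds marked chromatin and shields ends from resection, read 7.71 and 7.53 on the YM155 arrays and 8.32 and 7.80 on the untreated arrays. Its difference of −0.44 ± 0.22 (limma adjusted p = 0.491) was −0.70 from untreated replicate 1 and −0.18 from replicate 2. The dimmer probe sets of TP53BP1 gave −0.20, −0.16 and −0.18, each with arrays that overlapped. MDC1, the mediator that recruits RNF8, gave −0.40 ± 0.20 without overlap (8.35 and 8.07 on the YM155 arrays, 8.41 and 8.82 on the untreated arrays). Its dimmer probe set gave −0.47, with arrays that overlapped.

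The kinases at the top of the pathway had differences near 0 at their probe sets of highest mean. ATM read 6.53 and 6.61 on the YM155 arrays, between the untreated readings of 7.02 and 6.15, so that its difference was −0.45 from one untreated array and 0.42 from the other. Its dimmer probe sets gave 0.15, 0.0085 and 0.20, and the last, at 3.89 to 4.12 log2, was higher without overlap. ATR gave −0.055 ± 0.16 and RNF168, which extends the mark laid by RNF8, −0.11 ± 0.17. CHEK1, the checkpoint kinase downstream of ATR, read 7.34 and 7.42 on the YM155 arrays and 7.36 and 7.13 on the untreated arrays, a difference of 0.14 ± 0.15. Its other 3 probe sets lay lower without overlap, at −0.28, −0.21 and −0.94. The last read 5.63 and 5.39 on the YM155 arrays and 6.89 and 6.01 on the untreated arrays, the largest difference of any of the 85 probe sets (−0.94 ± 0.33 SE; limma adjusted p = 0.423). The probe sets of CHEK1 therefore did not give 1 direction, and which transcripts each of them reads was not tested.

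Among genes acting at break ends, RAD50 and NBN stood on opposite sides. RAD50, the ATPase of the MRE11 complex, read 8.69 and 8.57 on the YM155 arrays, below the untreated readings of 8.99 and 8.83, at −0.28 ± 0.14 (SE; limma adjusted p = 0.49). The 2 other probe sets gave 0.050 and 0.34. NBN, which links the complex to ATM, read 9.77 and 9.75 on the YM155 arrays and 9.74 and 9.58 on the untreated arrays. This small difference of 0.10 ± 0.13 was without overlap, and all 4 probe sets were above 0, at 0.10 to 0.42. MRE11, the nuclease, read 8.44 and 8.36 on the YM155 arrays, between the untreated readings of 8.67 and 7.95.

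In homologous recombination, RAD54B and BRIP1 had the largest differences, in opposite directions. RAD54B, a DNA-dependent motor protein, read 6.96 and 6.90 on the YM155 arrays, against 7.55 and 7.86 on the untreated arrays. Its difference was −0.78 ± 0.16 (SE; limma adjusted p = 0.232), or 41.7% less signal, and lay at −0.62 and −0.93 from untreated replicates 1 and 2. BRIP1, the helicase partner of BRCA1, read 7.38 and 7.44 on the YM155 arrays, against 7.22 and 6.28 on the untreated arrays. It stood 0.66 ± 0.33 higher without overlap (adjusted p = 0.5), but by 0.19 from untreated replicate 1 and by 1.14 from replicate 2.

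RAD51C, a homologous recombination gene, showed the widest gap between the untreated arrays of the 40 genes, and was singled out after its values were seen. It read 8.50 and 8.22 on the YM155 arrays, and 9.11 and 8.07 on the untreated arrays, with a difference of −0.23 ± 0.37 (SE). Its second probe set had closer untreated readings, at 8.26 and 7.96 on the YM155 arrays and 8.69 and 8.60 on the untreated arrays, and gave −0.54 ± 0.16 without overlap (limma adjusted p = 0.395 over 32768 probe sets). BRCA1, the tumour suppressor that promotes resection, read 7.85 and 7.75 on the YM155 arrays, between the untreated readings of 8.25 and 7.45 (−0.051 ± 0.29). A dimmer probe set of BRCA1 gave −0.43, with arrays that overlapped. BARD1, its obligate partner, gave −0.12 ± 0.12 and PALB2, which bridges BRCA1 to BRCA2, −0.061 ± 0.20. The BARD1 value was lower without overlap, but its second probe set, nearly as bright, gave 0.11 and was higher without overlap. A dimmer probe set of BARD1 gave −0.13 with arrays that overlapped.

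The Fanconi, helicase and mismatch repair genes had differences below 0.5 log2 in size at their probe sets of highest mean. FANCI, a subunit of the complex that is ubiquitinated at interstrand crosslinks, read 8.97 and 8.60 on the YM155 arrays and 9.28 and 8.74 on the untreated arrays (−0.22 ± 0.25 SE). FANCM, a translocase that brings the core complex to stalled forks, read 5.07 and 5.03 on the YM155 arrays and 5.28 and 5.19 on the untreated arrays, lower without overlap at −0.18 ± 0.13. Its 3 probe sets were all below 0 and without overlap. FANCL, the ubiquitin ligase of the pathway, gave −0.14 ± 0.15. Of the RecQ helicases, BLM, which dissolves recombination intermediates, read 6.89 and 6.78 on the YM155 arrays, below the untreated readings of 7.22 and 7.06 (−0.31 ± 0.14; limma adjusted p = 0.449), and WRN read 6.89 and 7.01, between 7.08 and 6.64 in untreated arrays. PMS1, a MutL homolog, read 7.29 and 7.46 on the YM155 arrays and 8.08 and 7.63 on the untreated arrays, lower without overlap at −0.49 ± 0.20 (limma adjusted p = 0.416), and its 4 probe sets lay between −0.49 and −0.036. MSH6, which recognises mismatches, read 9.60 and 9.64 on the YM155 arrays and 9.54 and 9.60 on the untreated arrays, a difference of 0.053 ± 0.12, while its second probe set gave −0.39.

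In nucleotide excision repair, the nucleases that cut on either side of a lesion stood on opposite sides. ERCC5, the gene of XPG, which makes the 3′ cut, read 7.76 on each of the YM155 arrays, against 8.32 and 8.56 on the untreated arrays. The difference was −0.68 ± 0.14 (SE; limma adjusted p = 0.232), or 37.7% less signal, from its only probe set. ERCC4, the gene of XPF, which makes the 5′ cut, read 5.92 and 6.37 on the YM155 arrays, against 5.75 and 5.11 on the untreated arrays. It stood 0.72 ± 0.28 higher without overlap (limma adjusted p = 0.408), by 0.40 from untreated replicate 1 and by 1.03 from replicate 2. A second, dim probe set of ERCC4 gave 0.45 with readings that touched. ERCC1, the partner of XPF, did not follow either: its probe sets gave −0.020, 0.11 and 0.37, and the arrays overlapped in each.

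The damage sensor gene XPC read 7.43 and 7.38 on the YM155 arrays and 8.03 and 7.54 on the untreated arrays, lower without overlap (−0.39 ± 0.20 SE; limma adjusted p = 0.515), by −0.63 and −0.14 from untreated replicates 1 and 2. XPA, which verifies the lesion, gave −0.30 ± 0.27, and its YM155 readings of 7.99 and 7.90 lay between the untreated readings of 8.61 and 7.88. The helicases of TFIIH, ERCC3 and ERCC2, gave −0.13 ± 0.17 and 0.036 ± 0.12. Each of the 5 genes at an unadjusted p under 0.05 was below both untreated arrays, with single-array differences from −0.30 (RNF8) to −0.93 (RAD54B). That adds nothing to the threshold, because all 1051 genes lower and all 734 genes higher at it had arrays that did not overlap. The 2 genes at least 1.5-fold higher, ERCC4 and BRIP1, lay mainly away from untreated replicate 2. With each array left out in turn, 25 of the 40 genes kept the sign of their difference and 15 did not.

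Probe by probe, 9 of the 85 probe sets stood lower at an unadjusted p under 0.05 (all probe sets: 6.06%) and 0 stood higher (all probe sets: 5.03%). Of the 32768 tested, 0 passed the adjusted threshold, and the smallest adjusted p was 0.22. The 9 were the 3 of PARP2 and 1 each of CHEK1, CHEK2, RNF8, RAD51C, RAD54B and ERCC5. Without overlap, 24 of the 85 were lower (all: 23.9%) and 11 higher (all: 19.4%). Of 23 genes with more than 1 probe set, 9 had all of them below 0, 2 (NBN and ERCC4) had all above 0, and 12 had both signs.

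**Figure D4:**
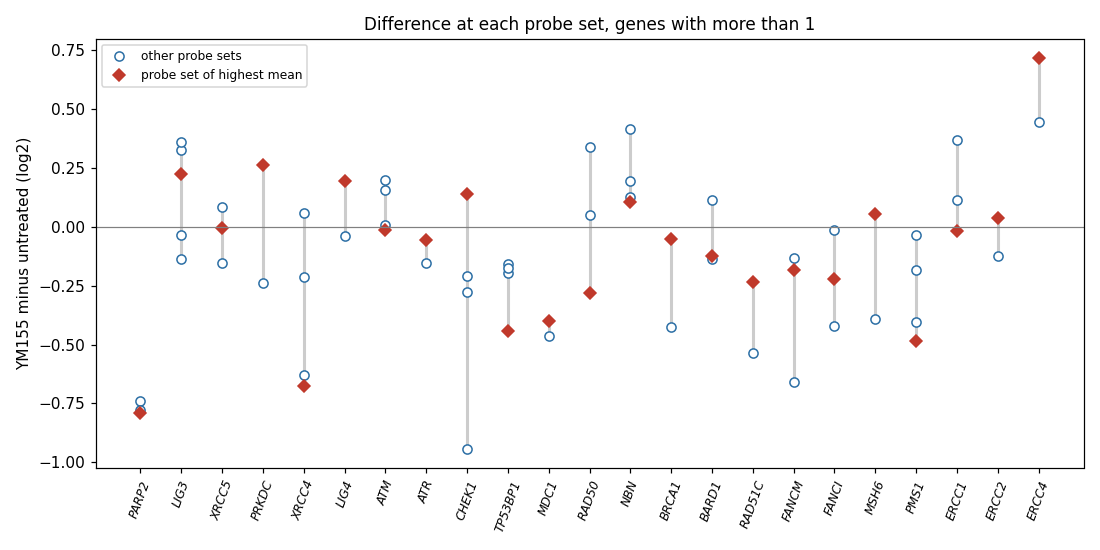
Log2 difference (YM155 minus untreated, y axis) at every probe set that passed the filter, for the 23 repair genes with more than 1 (x axis). Diamonds are the probe set of highest mean, used for the gene, and open circles the others. The 3 of PARP2 lie between −0.79 and −0.74, while those of CHEK1 run from −0.94 to 0.14.

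A second list of 111 other repair genes, chosen with the results known, held 101 that were tested. Of these, 56 had differences below 0 (all genes: 52.9%), with a median of −0.046. At an unadjusted p under 0.05, 11 stood lower (all genes: 7.48%) and 4 higher (all genes: 5.23%), and 0 passed the adjusted threshold by limma. Their median was −0.17 from untreated replicate 1 and 0.013 from replicate 2, with the same order as in the 40 genes. All genes tested had this order too, at −0.050 and 0.0075, so it is not particular to repair genes. FANCF, a subunit of the Fanconi core complex, read 6.63 and 6.57 on the YM155 arrays and 7.84 and 7.09 on the untreated arrays (−0.86 ± 0.28 SE). RMI2, which works with BLM, read 8.0 and 7.56 on the YM155 arrays and 8.57 and 8.61 on the untreated arrays (−0.81 ± 0.19). UBE2T, the conjugating enzyme used by FANCL, gave −0.62 ± 0.20. Further lower values belonged to the translesion polymerase gene POLK (−0.61 ± 0.17), to RAD54L, the closest relative of RAD54B (−0.60 ± 0.17), and to RAD9A of the checkpoint clamp (−0.56 ± 0.16). SHLD1, a subunit of shieldin, which acts downstream of TP53BP1, stood 0.62 ± 0.15 higher, and RAD51B, a recombination gene with a dim probe set, 0.54 ± 0.13 higher. The adjusted p of these 8 genes lay between 0.246 and 0.335.

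One fit made calls. Without untreated replicate 1, limma gave an adjusted p under 0.05 for ERCC5 (−0.80, adjusted p = 0.0454) and RAD54B (−0.93, adjusted p = 0.0407) as lower, among 3.71% of all genes, and for BRIP1 (1.14, adjusted p = 0.0407) as higher, among 4.3%. Over all fits the adjusted p ran up to 1 for each of these genes. In that fit the lone untreated array is assumed to vary as the YM155 arrays do. Leaving out untreated replicate 2 or either YM155 array gave 0 calls.

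Of 6 squamous epithelium markers listed, 4 were measured and all 4 passed the filter, with KRT5 (10.74 to 11.19 log2) and KRT14 (8.38 to 9.26) bright. KRT6A, TP63 and the leukocyte marker CD68 had no probe set annotated with their symbol alone and were not measured. SOX2 read 5.48 and 5.64 on the YM155 arrays and 6.74 and 4.87 on the untreated arrays. The summed signal of these 4 was higher after YM155 without overlap, at 11.66 and 11.68 log2 on the YM155 arrays and 11.32 and 11.22 on the untreated arrays, and its part in the results was not tested. Of the other markers, 3 of 5 glandular, 3 of 6 fibroblast, 1 of 4 leukocyte and 2 of 4 endothelial genes passed the filter, and their summed signals overlapped between the groups. The brightest of each were MUC5AC (mean 4.58 log2), COL1A1 (6.16), CD3E (3.75) and PECAM1 (4.29), while PTPRC (2.05 to 2.18) and KDR (1.88 to 2.14) lay below the filter. The ratio of 3′ to 5′ ACTB control signal, a sign of RNA quality, was 4.28 and 7.74 on the YM155 arrays and 6.61 and 4.54 on the untreated arrays, and its part in the results was not tested. For GAPDH the same ratio was 1.02 and 1.16 on the YM155 arrays and 1.03 on each of the untreated arrays. A gap of at least 2-fold was found at 56 of 32768 probe sets within the YM155 pair and at 1690 within the untreated pair.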

How the data were processed

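Each array has 1 intensity value per probe set. The authors deposited these intensity values on a linear scale (2.42 to 15214), made with RMA per the submitters' processing notes; its version and settings are not given here. RMA sets arrays to a common distribution (array medians 16.0 to 16.3), so a shift shared by all genes is not measured. Log2 was taken here. From 54675 probe sets, 62 controls were removed. The platform annotation gave 1 symbol to 41091 probe sets, several to 1801 and none to 11721, and 41037 matched RefSeq by gene ID. A filter at the 40th percentile of the mean (3.32 log2) kept 32768 probe sets. For each of 14043 genes the probe set of highest mean was used.

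YM155 and untreated arrays (2 each) were compared by limma 3.58.1 (R 4.3.3) with lmFit and eBayes, a two-sided test and no term beside the group. P-values were adjusted by Benjamini-Hochberg (threshold 0.05), over all genes and separately over all probe sets. The SE is limma's moderated one. Precision is limited by the number of arrays, with 2 residual degrees of freedom and 2.69 from the prior. A run on simulated data checked only that added differences were recovered. Both groups had the same spread there, unlike these arrays, so the run does not bear on the p-values here.

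The members and lists were chosen with earlier results of these data known. Array values were given for members at an unadjusted p under 0.05 without overlap and for the 2 of largest difference in each role, and 8 other repair genes were named by the same threshold and by size. Array values of further members, among them ATM, BRCA1, RAD51C, MDC1 and XPC, were chosen after their values were seen. Alternatives were no filter or the 60th percentile, averaging the probe sets of a gene, probe sets whose names lack _s_at and _x_at, quantile normalization again, median centring, eBayes with a robust trend, the replicate number as a block, and each array left out. Same-numbered arrays did not deviate together (correlation −0.033 over 32768 probe sets and −0.34 over the 40 repair genes), and no label pairs them.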

Additional observations from a re-analysis of the deposited data

How the results depend on the processing

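The median difference of the repair genes was −0.13 and stayed within 1 SD between replicates (0.14) in every alternative but one: over the arrays left out it ran from −0.27 to 0.0096, above 0 without untreated replicate 1. The number of repair genes at an unadjusted p under 0.05 and lower, 5, ran from 0 (without YM155 replicate 2) to 13 (without untreated replicate 2), and was 2 of 32 genes when names with _s_at or _x_at were left out and 3 with the replicate block. PARP2, CHEK2 and RNF8 have only probe sets with those suffixes, so they were not among the 32 genes. The replicate block changed no other call. Genes called by limma numbered 0 in all fits but the one without untreated replicate 1, with 1125 genes (521 lower, 604 higher) and 3 repair genes, so those counts ran from 0 to 1125, 0 to 521, 0 to 604 and 0 to 3 over the arrays left out. Of all genes, 1785 had an unadjusted p under 0.05, and 445 to 4430 over the arrays left out. Calls among probe sets numbered 0 in every fit that tested them, where 1986 stood lower and 1647 higher at an unadjusted p under 0.05. Single genes changed sign with the probe set used: with the mean of probe sets, RAD50 gave 0.036 and MSH6 −0.17, and without the suffixes LIG3 gave −0.034, XRCC4 0.059 and RAD50 0.050. Over the arrays left out, LIG3 ran from −0.12 to 0.57, WRN from −0.12 to 0.31 and FANCI from −0.49 to 0.048. The cause of these changes was not tested beyond the array or probe set exchanged.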

Other observations

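Gene length was set against the difference as a description across genes, which are not independent replicates and share the same 4 arrays. Over the 40 repair genes, Spearman's rho between genomic span and the YM155 difference was 0.045, and over the 14025 tested genes with a span in the RefSeq table it was 0.045. For the repair genes it was −0.10 with untreated replicate 1 as the comparator and 0.11 with replicate 2.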
